A study of Homo sapiens with 6 samples.

Results

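The genes described here are 10 transcripts of the negative feedback layer of the RAS-ERK pathway, namely the dual-specificity phosphatase genes DUSP1, DUSP2, DUSP4, DUSP5 and DUSP6, the Sprouty genes SPRY1, SPRY2 and SPRY4, and the Sprouty-related genes SPRED1 and SPRED2. They were chosen by gene symbol from the 46427 genes of the count table, and all 10 were among the 17419 genes with enough counts to be tested. The cells were Hs578T, a human triple-negative breast cancer line. The question was how the knockdown of CCN3, a secreted matricellular protein, changed their transcriptome. RNA-seq libraries from poly(A) RNA were compared between 3 samples of cells with a control shRNA (shCTRL) and 3 samples of cells with CCN3 shRNA #2 (shCCN3). Both lines had been transduced with the pSUPER-retro-puro retroviral vector and were grown in DMEM with fetal bovine serum, so that the control carried the vector and the selection too. CCN3 was targeted by 1 shRNA sequence in these libraries, and the study's methods speak of puromycin-selected clones without saying whether each line was a pool or a single clone. The submitters call the samples independent biological replicates, and the p-values measure the spread between these samples.

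ERK, the last kinase of the RAS-RAF-MEK-ERK cascade, switches on genes whose products turn the same cascade down. The DUSP proteins remove phosphate from both the threonine and the tyrosine of the activation loop of MAP kinases, whereas Sprouty and SPRED proteins act further upstream, between the receptor, RAS and RAF. Since many of these genes are transcribed in response to ERK activity, their mRNAs are often read together as a record of pathway output, although each also answers to other signals. ERK phosphorylation itself was not measured in these libraries.

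CCN3 mRNA was lower in each shCCN3 library than in each shCTRL library, at 47.0 ± 0.469 against 101 ± 2.43 CPM (SD, n = 3 each), where CPM is the count of a gene scaled to the library total and normalized by edgeR's TMM method. The libraries held between 56159110 and 68393177 counts, so that 0.0439 to 0.0534 CPM equals 3 counts. VIM, the intermediate filament of mesenchymal-like cells, had mean levels of 7775 (shCTRL) and 7062 (shCCN3) CPM. The other markers listed for such cells moved in both directions. CDH2 was at 89.0 (shCTRL) and 162 (shCCN3) CPM, FN1 at 2361 and 2682 and AXL at 1092 and 1120. CAV1 was at 639 (shCTRL) and 407 (shCCN3) CPM and CD44 at 2157 and 1814. CDH1 and ESR1, which mark epithelial and estrogen receptor-positive cells, had at most 9 and 10 counts in any library, and the T cell marker CD3E had 0. The other subtype receptor genes were present, with ERBB2 at 77.9 (shCTRL) and 78.2 (shCCN3) CPM and PGR at 180 to 292 counts. Of the endothelial markers, PECAM1 had 202 to 273 counts per library, VWF at most 7 and CDH5 0. Other genes of the marker lists were present and moved, with KRT18 at 163 (shCTRL) and 231 (shCCN3) CPM, KRT8 at 1215 to 1432 and 818 to 932 counts and the macrophage marker CD68 at 102 and 58.5 CPM, while the leukocyte marker PTPRC had at most 13 counts. The part of these differences in the results was not tested. Within their groups, shCTRL replicate 3 and shCCN3 replicate 2 had lower levels of long transcripts than the other libraries. The median deviation from the group mean of transcripts in the longest tertile of exon length minus that in the shortest tertile was -0.10 and -0.20 on the log2 scale in these libraries, against 0.03 to 0.14 in the other 4. In bulk libraries, fewer cells that express a gene and less RNA per cell cannot be told apart.

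Of the 10 feedback genes, 8 fell in shCCN3 cells, none rose and 2 did not pass the test, by a Benjamini-Hochberg adjusted p under 0.05 in the quasi-likelihood test of edgeR, adjusted over all genes tested. Of all genes tested, 17.3% fell and 16.2% rose by the same rule. The median log2 fold change was -0.65 over the 10 genes and 0.0076 over all genes tested. The 8 genes that fell were DUSP1, DUSP2, DUSP4, DUSP5, DUSP6, SPRY2, SPRY4 and SPRED2, and in each of them the highest shCCN3 library lay below the lowest shCTRL library, as was the case for 23.6% of all genes tested. The 10 genes were chosen with earlier results of these same libraries known, so that their directions are not independent evidence. DUSP2 also belongs to a gene list that the study had selected on these libraries. At least 2-fold lower were 4 of the 10 genes, DUSP6, DUSP2, DUSP4 and SPRY2, against 3.93% of all genes tested.

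**Figure D1:**
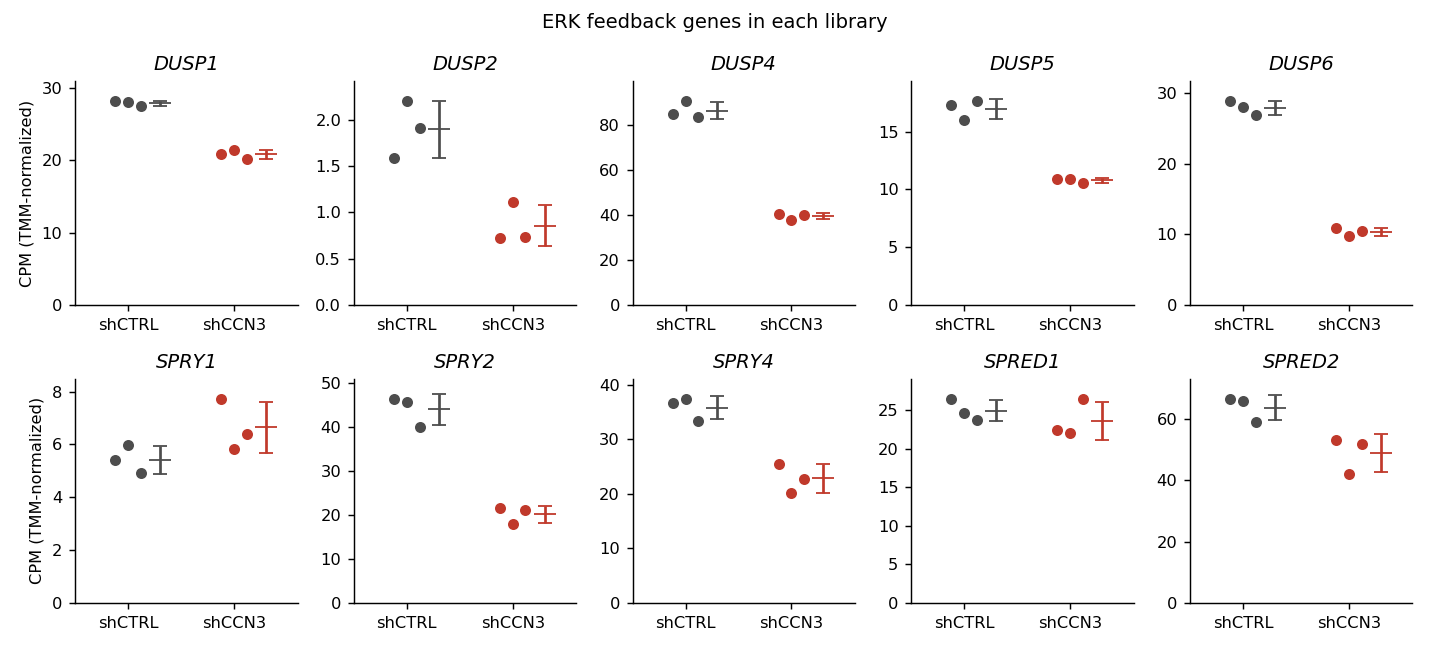
Level of each of the 10 feedback genes in each library, in TMM-normalized CPM on linear axes that start at 0 and differ between panels. Points are libraries (grey, 3 shCTRL; red, 3 shCCN3) and the bars give the mean ± SD. The groups are apart in 8 panels and overlap for SPRY1 and SPRED1.

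DUSP6 encodes a cytoplasmic phosphatase selective for ERK, and it had the largest fold change of the 10 genes. Its mRNA was at 28.8, 28.0 and 26.9 CPM in the shCTRL libraries and at 10.9, 9.77 and 10.4 CPM in the shCCN3 libraries. No shCCN3 library reached even 11 CPM, and the groups were far apart relative to their spread. DUSP6 fell 2.68-fold, with a log2 fold change of -1.42 (SE 0.08, adjusted p = 1.85e-06 by the quasi-likelihood test of edgeR).

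The other phosphatases of the set are inducible nuclear proteins, of which DUSP5 is selective for ERK, while DUSP1, DUSP2 and DUSP4 also act on p38 or JNK. DUSP4 was at 85.0, 90.5 and 83.7 CPM in the shCTRL libraries and at 40.5, 37.8 and 40.2 CPM in the shCCN3 libraries. The libraries within each group lay close together and the groups were well apart. DUSP4 fell 2.19-fold, by a log2 fold change of -1.13 (SE 0.06, adjusted p = 2.19e-06 from the same edgeR test). DUSP5 was at 17.3, 16.0 and 17.6 CPM in the shCTRL libraries and at 10.9, 10.9 and 10.5 CPM in the shCCN3 libraries. Its groups did not overlap, and the shCCN3 libraries were nearly equal. DUSP5 fell 1.57-fold (log2 fold change -0.65, SE 0.08, adjusted p = 2.05e-04 from the same edgeR test). DUSP1, the immediate early phosphatase of the family, was at 28.2, 28.0 and 27.5 CPM with control shRNA and at 20.9, 21.4 and 20.2 CPM with CCN3 shRNA. The difference was small but exceeded the spread of either group. DUSP1 fell by 25.3% (log2 fold change -0.42, SE 0.06, adjusted p = 9.95e-04 from the same edgeR test). DUSP2, a phosphatase best known from activated leukocytes, was sparse here, with 109, 138 and 128 counts in the shCTRL libraries and 50, 62 and 47 counts in the shCCN3 libraries. These counts corresponded to 1.59, 2.20 and 1.91 CPM against 0.725, 1.12 and 0.735 CPM, so that the highest shCCN3 library was still below the lowest shCTRL library. Its log2 fold change of -1.15 had the widest error of the set (SE 0.23, adjusted p = 0.00435 from the same edgeR test).

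The balance between DUSP6 and DUSP1 shifted toward DUSP1. The log2 ratio of DUSP6 counts to DUSP1 counts within a library was 0.03, -0.0016 and -0.03 in the shCTRL libraries and -0.93, -1.13 and -0.95 in the shCCN3 libraries, a mean difference of -1.01. The log2 ratio of DUSP6 to DUSP4 counts moved less, from -1.63 ± 0.07 to -1.93 ± 0.04 (SD, n = 3 each). A ratio within a library does not depend on the normalization between libraries.

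Among the Sprouty genes, SPRY2 and SPRY4 fell, and SPRY1 did not pass the test. Sprouty proteins bind adaptors and ubiquitin ligases at activated receptors and dampen the step from receptor to RAS and RAF. SPRY2 was at 46.4, 45.8 and 40.0 CPM in the shCTRL libraries and at 21.5, 18.0 and 21.1 CPM in the shCCN3 libraries. All shCCN3 libraries lay far below all shCTRL libraries, and in each group 1 library was lower than the other pair. SPRY2 fell 2.18-fold, by a log2 fold change of -1.12 (SE 0.09, adjusted p = 2.30e-05 by the quasi-likelihood test of edgeR). SPRY4 was at 36.6, 37.3 and 33.4 CPM with control shRNA and at 25.4, 20.2 and 22.8 CPM with CCN3 shRNA. Its groups were apart, with the same libraries lowest as for SPRY2. SPRY4 fell 1.57-fold (log2 fold change -0.65, SE 0.09, adjusted p = 6.47e-04 from the same edgeR test). SPRY1 was at 5.40, 5.97 and 4.90 CPM with control shRNA and at 7.72, 5.83 and 6.39 CPM with CCN3 shRNA. The groups overlapped, since shCCN3 replicate 2 lay below shCTRL replicate 2. The log2 fold change of SPRY1 was 0.30 (SE 0.13, adjusted p = 0.121 from the same edgeR test). Without shCCN3 replicate 2 it was 0.38 with an adjusted p of 0.0359, so that whether SPRY1 passed the test was decided by 1 library.

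The log2 ratio of SPRY2 to SPRY1 counts was 3.10, 2.94 and 3.03 in the shCTRL libraries and 1.48, 1.63 and 1.72 in the shCCN3 libraries. This was the largest shift among the 5 ratios between relatives that were computed, with a mean difference of -1.41. The log2 ratio of SPRY2 to SPRY4 counts moved from 0.30 ± 0.04 to -0.17 ± 0.07 (SD, n = 3 each), with no overlap between the groups.

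**Figure D2:**
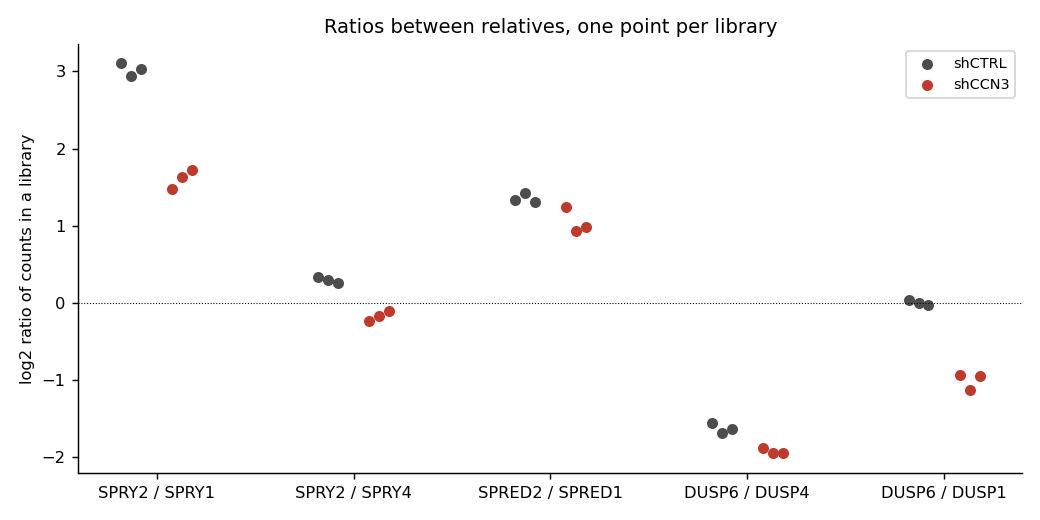
Log2 ratio of the counts of 2 related genes within a library, 1 point per library (grey, shCTRL; red, shCCN3). The groups are apart for all 5 pairs, and SPRY2 to SPRY1 moved furthest, from 3.02 to 1.61 on average.

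The SPRED genes encode membrane proteins that bring neurofibromin, a GTPase-activating protein, to RAS. SPRED2 fell and SPRED1 did not pass the test. SPRED2 was at 66.5, 65.8 and 59.0 CPM in the shCTRL libraries and at 53.2, 41.9 and 52.0 CPM in the shCCN3 libraries. The groups did not overlap, but shCCN3 replicate 2 and shCTRL replicate 3 were again lowest in their groups. SPRED2 fell by 23.1% (log2 fold change -0.38, SE 0.10, adjusted p = 0.0146 by the quasi-likelihood test of edgeR). It missed the threshold without shCTRL replicate 1, at an adjusted p of 0.0575, and without shCTRL replicate 2, at 0.0676, with a log2 fold change of -0.35 each time. The decrease was smallest without shCCN3 replicate 2, at a log2 fold change of -0.27, and SPRED2 still passed the test there. SPRED1 was at 26.4, 24.6 and 23.8 CPM with control shRNA and at 22.5, 22.0 and 26.4 CPM with CCN3 shRNA. The groups overlapped through shCCN3 replicate 3 alone, since the other 2 shCCN3 libraries lay below all shCTRL libraries. The log2 fold change was -0.08 (SE 0.09, adjusted p = 0.552 from the same edgeR test).

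Apart from DUSP1, DUSP2 and DUSP5, each of the 10 genes was lowest within its group in shCTRL replicate 3 and in shCCN3 replicate 2, the libraries with lower levels of long transcripts. DUSP1, DUSP2 and DUSP5 have the shortest exon lengths of the set, at 2019, 1932 and 2615 bases, and the other 7 have 3038 to 8260 bases. The part of this length trend in the fold changes was not tested. When single libraries were left out, log2 fold changes ranged from -1.46 to -1.38 for DUSP6, -1.15 to -1.09 for DUSP4, -1.19 to -1.04 for SPRY2, and -0.74 to -0.57 for SPRY4, and these genes passed the test each time. DUSP1 (-0.44 to -0.40), DUSP5 (-0.69 to -0.63) and DUSP2 (-1.37 to -1.03) passed it each time as well.

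**Figure D3:**
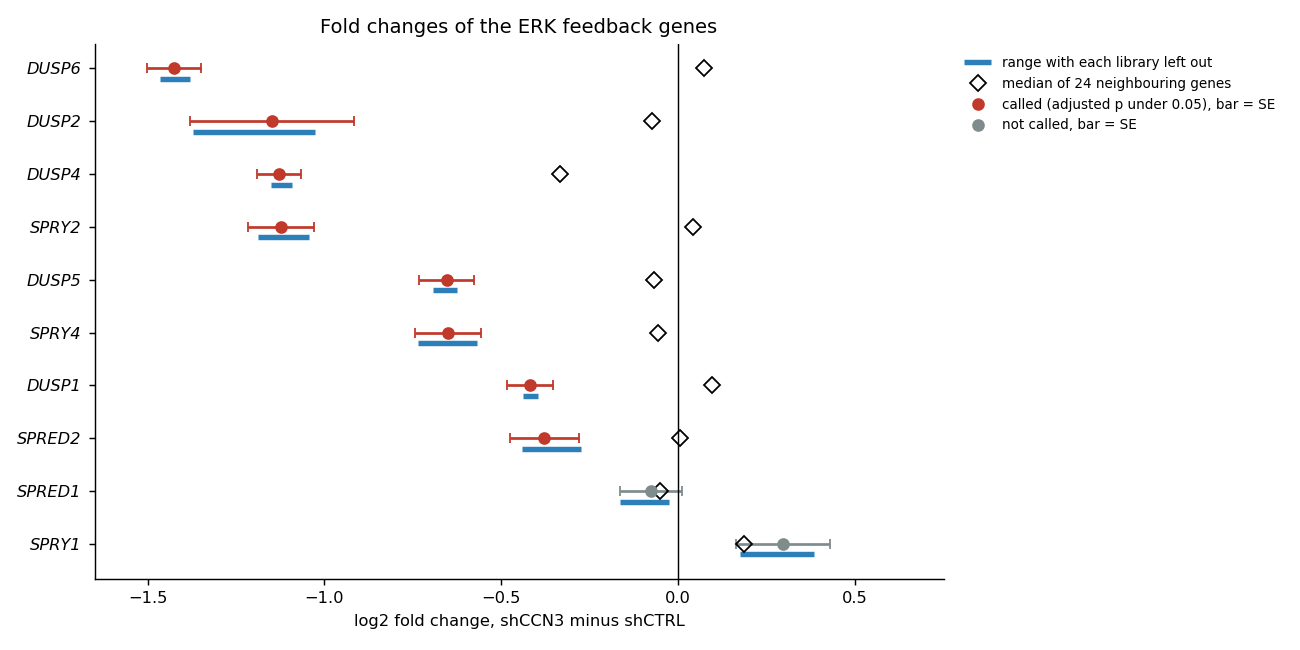
Log2 fold change of each feedback gene (shCCN3 minus shCTRL) with its SE, in red where the adjusted p was under 0.05. Blue bars span the values with each library left out, and diamonds mark the median of the 24 nearest tested genes. The range for SPRED2 is -0.44 to -0.27, and the diamond furthest from 0 is that of DUSP4, at -0.34.

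Levels were compared between genes as CPM per kilobase of exon. The order of the genes depends on the length assumed, as do the family shares given below. In shCTRL cells SPRY2 (14.5 ± 1.17, SD, n = 3) and DUSP1 (13.8 ± 0.175) led, and their ranges overlapped. SPRED2 (12.4 ± 0.806) and DUSP4 (11.9 ± 0.495) followed, with ranges that overlapped each other and lay below that of DUSP1. DUSP5 (6.49 ± 0.333) and DUSP6 (6.02 ± 0.206) overlapped as well, and SPRY4 (5.45 ± 0.319), SPRED1 (3.02 ± 0.162), SPRY1 (1.37 ± 0.135) and DUSP2 (0.981 ± 0.158) came after them without overlap between neighbours. In shCCN3 cells DUSP1 (10.3 ± 0.315) and SPRED2 (9.52 ± 1.20) were highest and overlapped. SPRY2 had moved from rank 1 to rank 3 (6.65 ± 0.637) and DUSP6 from rank 6 to rank 8 (2.24 ± 0.126), behind SPRED1 (2.86 ± 0.295), which ranked below it in shCTRL cells.

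Summed per family on this scale, the 5 DUSP genes went from 39.2 ± 0.489 to 22.6 ± 0.334 CPM per kilobase (SD, n = 3 each), 57.6% of the shCTRL level. The 3 Sprouty genes went from 21.3 ± 1.59 to 11.8 ± 1.23, or 55.4%, and the 2 SPRED genes from 15.4 ± 0.941 to 12.4 ± 1.37, or 80.4%. The unequal decreases changed the make-up of each family. DUSP1 made up 35.2% ± 0.224 of the DUSP sum in shCTRL cells and 45.7% ± 0.956 in shCCN3 cells, whereas DUSP6 went from 15.4% ± 0.410 to 9.93% ± 0.557 and DUSP4 from 30.4% ± 0.956 to 24.1% ± 1.03. SPRY2 went from 68.0% ± 0.653 to 56.4% ± 1.45 of the Sprouty sum, while SPRY1 went from 6.41% ± 0.319 to 14.2% ± 0.851. These shares depend on the transcript length assumed. Per coding length, DUSP4 rather than DUSP1 held the largest share of the DUSP sum, with 49.4% in shCTRL cells and 43.6% in shCCN3 cells against 19.4% and 28.0% for DUSP1, and SPRY4 rather than SPRY2 led the Sprouty sum in shCCN3 cells, with 45.4% against 41.2%.

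**Figure D4:**
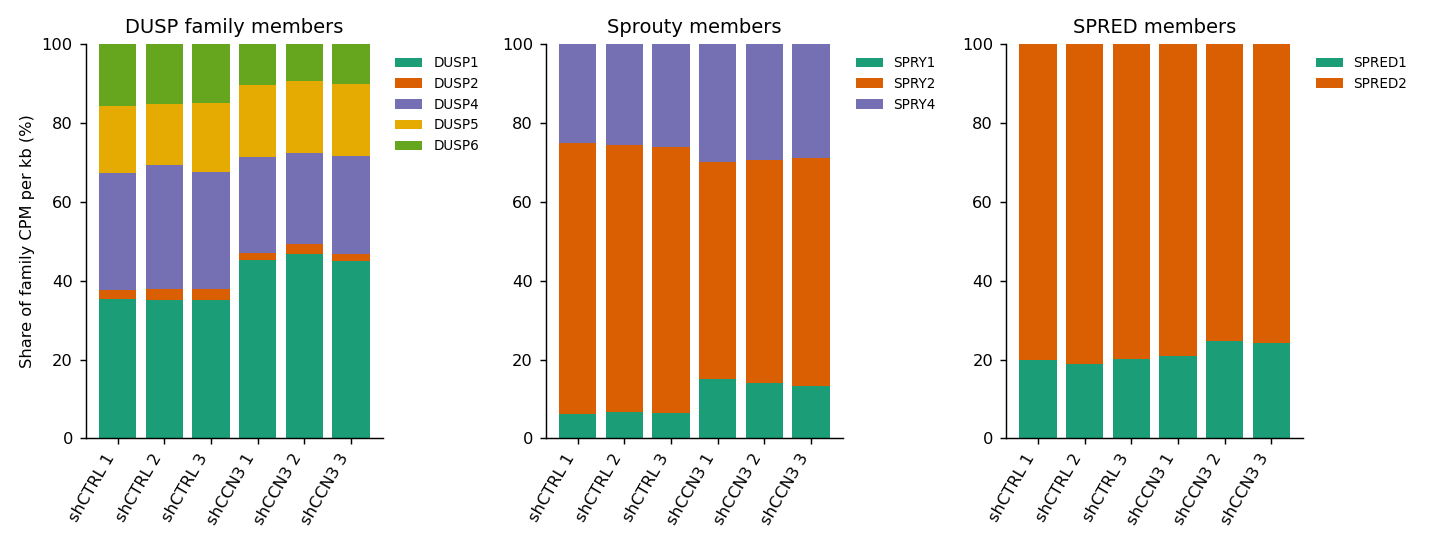
Share of each gene in the summed CPM per kilobase of exon of its family (percent, stacked from 0 to 100), for each library. Within the DUSP bars the DUSP1 share is about 35% in shCTRL and 45% to 47% in shCCN3 libraries, and the SPRY1 share is 6.13% to 6.76% against 13.4% to 15.1%.

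The promoters of these genes were read from RefSeq (GRCh38.p14). A window of 300 bases, from 250 before to 50 after the transcript start, was read for 8 of the 10 genes. No window was read for DUSP4 and DUSP5, and whether RefSeq holds one for them was not tested. Windows are printed for DUSP6 and SPRY2, which fell more than 2-fold, for DUSP1, which fell least among the phosphatases, and for DUSP2, the sparsest of the set. All 4 genes lie on the minus strand, and the windows, written 5′ to 3′ along the gene, are chr12:89352452-89352751 for DUSP6, chr13:80341077-80341376 for SPRY2, chr5:172771146-172771445 for DUSP1 and chr2:96145391-96145690 for DUSP2. Capitals mark the motif matches described after the sequences.
DUSP6: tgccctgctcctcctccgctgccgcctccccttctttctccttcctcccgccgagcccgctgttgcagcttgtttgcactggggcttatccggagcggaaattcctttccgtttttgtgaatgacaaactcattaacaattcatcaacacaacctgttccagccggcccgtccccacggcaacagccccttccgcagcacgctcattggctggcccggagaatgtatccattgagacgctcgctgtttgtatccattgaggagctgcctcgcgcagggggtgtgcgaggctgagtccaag
SPRY2: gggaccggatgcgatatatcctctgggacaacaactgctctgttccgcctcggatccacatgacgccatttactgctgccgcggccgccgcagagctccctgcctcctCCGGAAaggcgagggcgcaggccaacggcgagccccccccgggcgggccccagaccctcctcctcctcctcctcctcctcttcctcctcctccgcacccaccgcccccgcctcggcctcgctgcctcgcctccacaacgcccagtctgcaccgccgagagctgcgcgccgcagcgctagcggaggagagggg
DUSP1: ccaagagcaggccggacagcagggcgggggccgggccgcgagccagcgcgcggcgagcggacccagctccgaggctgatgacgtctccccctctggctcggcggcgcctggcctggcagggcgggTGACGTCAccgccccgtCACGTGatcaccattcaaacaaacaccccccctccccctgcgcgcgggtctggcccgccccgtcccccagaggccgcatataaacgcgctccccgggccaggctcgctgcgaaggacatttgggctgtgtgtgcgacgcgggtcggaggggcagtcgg
DUSP2: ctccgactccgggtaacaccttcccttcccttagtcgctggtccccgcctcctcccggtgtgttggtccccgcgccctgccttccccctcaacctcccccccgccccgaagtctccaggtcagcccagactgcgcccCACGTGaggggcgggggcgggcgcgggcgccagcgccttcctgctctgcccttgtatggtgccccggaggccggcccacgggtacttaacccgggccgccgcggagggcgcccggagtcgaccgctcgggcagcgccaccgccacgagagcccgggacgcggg
The motifs searched, on both strands, were the cyclic AMP response element TGACGTCA, the AP-1 site TGANTCA, the E-box CACGTG, the ETS core CCGGAA and the serum response CArG box. They occur in 1.85%, 7.71%, 7.26%, 17.2% and 1.29% of the 35116 RefSeq promoter windows of this length. DUSP1 held a cyclic AMP response element from 125 to 118 bases before its start and an E-box from 108 to 103 bases before it, which do not overlap. DUSP2 held an E-box from 113 to 108 bases before its start, and SPRY2 held an ETS core from 142 to 137 bases before its start. The windows of DUSP6, SPRY4 and SPRED1 held none of these letters. SPRY1 and SPRED2 held matches only in a window of an alternative start, an ETS core for SPRY1 and 2 AP-1 sites for SPRED2. The matches are a description of the sequence, and no binding was measured in these cells.

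Of the 7 remaining relatives, 6 could be tested, of which 3 rose, 1 fell and 2 did not pass, against 16.2% higher and 17.3% lower over all genes tested. SPRED3, the remaining SPRED gene, was at 20.4, 22.5 and 19.8 CPM with control shRNA and at 10.3, 10.1 and 10.4 CPM with CCN3 shRNA. It fell 2.03-fold (log2 fold change -1.02, SE 0.08, adjusted p = 1.67e-05 by the quasi-likelihood test of edgeR), more than either SPRED gene of the set. The genes that rose, DUSP8, DUSP10 and DUSP16, encode phosphatases that prefer JNK and p38 to ERK. DUSP8 went from 1.90 ± 0.0793 to 4.32 ± 0.626 CPM (SD, n = 3 each; log2 fold change 1.18, SE 0.15), DUSP10 had a log2 fold change of 0.68 (SE 0.08) and DUSP16 of 0.59 (SE 0.12), with adjusted p between 2.15e-04 and 0.00516 from the same edgeR test. The groups were apart for all 3, as they were in the same direction for 3959 of the 17419 genes tested. DUSP7, which like DUSP6 is a cytoplasmic ERK phosphatase, had a log2 fold change of -0.10 (SE 0.06, adjusted p = 0.217 from the same edgeR test), beside -1.42 for DUSP6. The difference between the 2 genes was not tested. SPRY3 was at 0.490 (shCTRL) and 0.710 (shCCN3) CPM and did not pass the test. DUSP9 was near 0 and could not be tested.

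In the cascade that the feedback genes act on, 4 of 22 genes passed the test, with 2 higher and 2 lower, against 33.4% of all genes tested in either direction. EGFR, the receptor, fell from 160.4 ± 16.8 to 89.0 ± 13.1 CPM (SD, n = 3 each; log2 fold change -0.85, SE 0.11). RPS6KA1, a kinase downstream of ERK, fell (-0.26), while GAB1, a docking protein, rose (0.73). For MAPK3, a kinase gene of the last step, the log2 fold change was -0.10 (SE 0.07, adjusted p = 0.312 from the same edgeR test). MAP2K2 and the adaptor SHC1 did not pass it either. Of 13 genes listed as other inhibitors or regulators of the pathway, 4 rose and none fell. That share is near the 33.4% called in either direction over all genes tested (16.2% higher). The count was 2 to 5 when single libraries were left out. The 4 were RASA1 (0.59) and NF1 (0.41), both GTPase-activating proteins of RAS, the ubiquitin ligase gene SIAH2 (0.35), whose product acts on Sprouty proteins, and DAB2IP (0.23). NF1 encodes neurofibromin, the partner of the SPRED proteins. PEBP1 and PEA15 did not pass the test. Calls near the threshold rested on single libraries. RPS6KA1 (adjusted p up to 0.126 by edgeR) and NF1 (up to 0.0881) no longer passed without shCTRL replicate 2, shCTRL replicate 3, shCCN3 replicate 1 or shCCN3 replicate 3, and DAB2IP (up to 0.0897) without any 1 shCTRL library or without shCCN3 replicate 1.

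Among 12 other genes often used as readouts of ERK output, 5 fell and 3 rose, with a median log2 fold change of -0.05, against 17.3% lower and 16.2% higher over all genes tested. Those that fell included EMP1 (-1.07), PHLDA1 (-0.59) and TFPI2 (-1.18), the last at under 1 CPM in every library. FOSL1, which encodes an AP-1 subunit, fell as well (-0.48). IER3, an immediate early gene, rose from 99.5 ± 5.40 to 183.5 ± 14.1 CPM (SD, n = 3 each; 0.88), and CCND1, which encodes cyclin D1, rose by 0.24. The ETS factor genes ETV4 and ETV5, which commonly follow ERK activity together with DUSP6 and SPRY4, had log2 fold changes of -0.08 (SE 0.08, adjusted p = 0.497) and 0.02 (SE 0.06, adjusted p = 0.853 from the same edgeR test). EPHA2 and SPHK1 did not pass the test. Of the 7 genes of the JNK and p38 kinases, on which DUSP1, DUSP2 and DUSP4 also act, MAPK8 rose from 30.8 ± 0.693 to 58.7 ± 2.24 CPM (0.93, SE 0.06, adjusted p = 6.26e-06), MAPK14 rose (0.41) and MAPK11 fell (-0.47). These 3 of 7 stand against 33.4% of all genes tested. The remaining 4, among them MAPK9 and MAPK12, did not pass. For MAPK12 the log2 fold change was -0.22 (SE 0.10, adjusted p = 0.145 by edgeR), and it passed only without shCCN3 replicate 2, at -0.34 (adjusted p = 0.00271 by the same edgeR test).

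**Figure D5:**
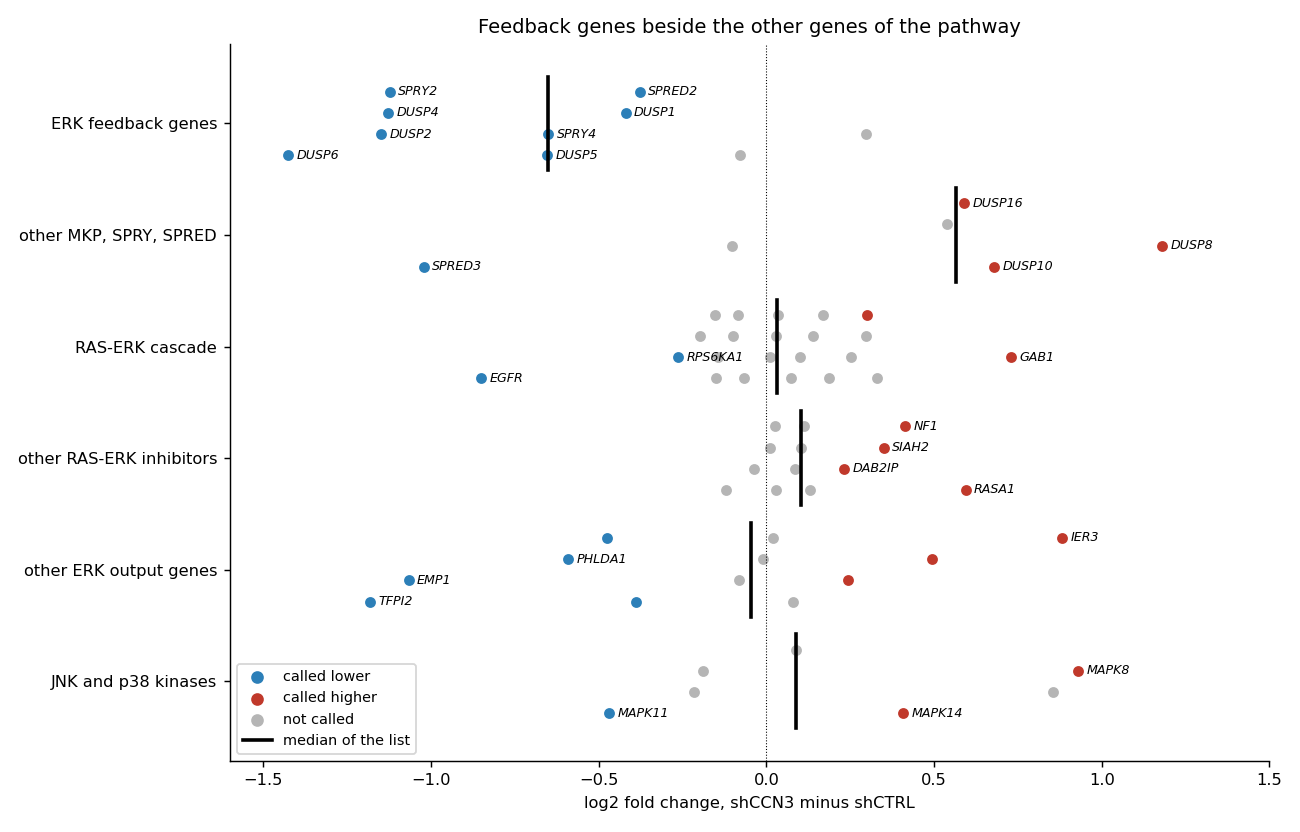
Log2 fold change (shCCN3 minus shCTRL) of each tested gene of the feedback set and of 5 lists of related genes, coloured by the call at an adjusted p under 0.05, with the median of each list as a black bar. The median of the feedback genes is -0.65, against 0.56 for the 6 tested relatives and -0.05 to 0.10 for the other 4 lists.

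The 10 genes lie on 8 chromosomes, with DUSP1 and SPRY4 on chromosome 5 and DUSP2 and SPRED2 on chromosome 2. The fold change of each was set beside the median of its 24 nearest tested genes. Around DUSP6 (chr12:89347235-89352501 in GRCh38.p14) the median log2 fold change was 0.07 with 1 of 24 genes lower, and around SPRY2 (chr13:80335976-80341126) it was 0.04 with 4 of 24 lower. DUSP4 on chromosome 8 differed from the other 9, since 18 of its 24 neighbours fell and their median was -0.34, while the 612 genes tested on the chromosome had a median of 0.11. The log2 fold change of DUSP4 minus the median of its neighbours was -0.79, and the part of the neighbourhood in its fold change was not tested. For the other 7 genes the neighbours had medians between -0.07 and 0.19, the highest of which was that of SPRY1, whose own value was 0.30.

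SPRY4-IT1, a noncoding RNA that overlaps SPRY4, had 2 to 9 counts per library against 1123 to 2518 for SPRY4. DUSP6 overlaps the annotated POC1B-DUSP6 readthrough transcript, which has no entry of its own in the count table used here. Whether the counting used the strand is not stated in the sources used here, and reads of such overlapping transcripts cannot be told apart.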

How the data were processed

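Total RNA of Hs578T shCTRL and shCCN3 #2 cells was sequenced after TruSeq Stranded mRNA library preparation. The authors deposited raw read counts per gene, without normalization, in 1 column per library, which were assigned to groups by the sample labels. The submitters' processing notes name bcl2fastq 2.20.0, Trimmomatic, HISAT2 2.1.0, StringTie 2.1.3d, DESeq2 and GRCh38. The role of each tool and the annotation are not given in the sources used here.

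The counts were analysed in R 4.3.3 with edgeR 4.0.16 (CPM, TMM normalization, filterByExpr, quasi-likelihood test, group as the only term), with Benjamini-Hochberg adjustment over the 17419 genes tested. The scripts were tested on simulated data. Within groups, libraries differed beyond counting noise, with a chi-square per degree of freedom of 7.13 to 46.0. Floors cover counting error only. Exon and coding lengths came from GENCODE release 29, and positions and promoters from RefSeq. Genes named from the related lists were up to 4 called genes with the largest absolute log2 fold change and up to 2 uncalled genes above the median CPM of the list. MAPK3, FOSL1, CCND1, ETV4, SPHK1, SPRY3 and DUSP9 were named outside this rule, after their values were seen. The values of 2 genes of the cascade list are not reported here. The members and lists were chosen with earlier results of these data known, and so were the promoter motifs. The alternatives were DESeq2 1.42.0, limma-voom (limma 3.58.1), other normalizations and filters, a fold limit, a replicate block and each library left out in turn.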

Additional observations from a re-analysis of the deposited data

How the results depend on the processing

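The count of 8 feedback genes lower in shCCN3 cells was the same under DESeq2's size factors, upper-quartile normalization, library totals alone, no filter, at least 10 counts in every sample, DESeq2 and limma-voom. It was 7 or 8 with each library left out in turn (7 to 9 called in either direction, with SPRY1 higher without shCCN3 replicate 2) and 6 with a limit of 1.5-fold. The limit of 1.5-fold left 2742 of the 5825 genes called over the whole table, by construction, and 4181 to 7229 were called with a library left out, the highest without shCCN3 replicate 2.

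For the RAS-ERK cascade the count of 4 became 7 with DESeq2 and ranged from 2 to 10 with each library left out, the 10 being reached without shCCN3 replicate 2. For the other inhibitors or regulators it ranged from 2 to 5. The 5 came without the same library and the 2 without shCTRL replicate 2, shCTRL replicate 3 or shCCN3 replicate 1. The 3 uncalled genes near 0 changed sign. With each library left out, the log2 fold change of PEA15 ranged from -0.0057 to 0.034, of EPHA2 from -0.052 to 0.037 and of ETV5 from -0.023 to 0.050, and EPHA2 was 0.0071 with library totals alone. The causes were not tested, and each fit with a library left out also had fewer samples.

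No pairing of the samples by replicate number was seen. Same-numbered libraries had correlations of 0.0891, -0.03 and -0.07 of their deviations from the group means. Libraries with different numbers had -0.14 to 0.16. With 3 samples a group, these correlations cannot exclude a pairing. With the replicate block, 4887 genes and the same number of feedback genes, 8, were called, and DAB2IP (adjusted p = 0.0667 by the quasi-likelihood test of edgeR) lost its call. DUSP2, with 47 to 138 counts per library, and SPRY1, with 324 to 532, had the fewest counts of the set. The part of depth in their spread was not tested.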
